A study of Rattus norvegicus with 67 samples.

Results

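Rat chromosome 14 was described by the retention of histone H3 in sperm along its whole length. All 1000 bp windows that the table of counts places on chromosome 14 were taken, which gave 115494 of the 2782040 windows of the series and 4.41% of the 2618741 windows of chromosomes 1 to 20. The animals are Sprague Dawley males of the F3 generation, the great-grand offspring of gestating females that were injected with atrazine, a herbicide, or with its vehicle DMSO, and no animal of the F3 generation was itself exposed. Counts are given for 66 of the 67 listed animals, with 16 in the control lineage and 50 in the atrazine lineage. Animals were about 1 year old when their pathology was scored, and the labels give any disease for 7 control lineage and 31 atrazine lineage animals and none for 9 and 19. A separate treatment tag contradicts the lineage. It reads Atrazine for every control lineage animal and DMSO for 13 atrazine lineage animals, M57 to M69, and the title and lineage tag were followed. The chromosome was singled out with the lineage differences on it already known, so every difference between the lineages below is a description and is not a test of the chromosome.

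During spermiogenesis most nucleosomes are dismantled and protamines take the place of histones, which packs the DNA of the sperm head tightly. A small part of the genome keeps its histones. A sequencing library of DNA bound to histone H3 counts the fragments from these sites, along with any background reads. The rat chromosome carries, among others, the casein, Ugt2 and Cxcl gene clusters, the receptor tyrosine kinase genes Kit, Kdr and Pdgfra, and the circadian gene Clock. The study calls a site that differs between groups a differential histone retention region, or DHR. Here a DHR is a window with p below 0.0001 in edgeR's quasi-likelihood test, with neighbours up to 1000 bp away joined to it while their p is under 0.1. Levels are reads per 1000000 of the animal's reads in the table (RPM), and a log2 fold change is positive where the atrazine lineage is higher.

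The libraries held between 19909382 and 239635003 reads, with a median of 57082911, so that 1 RPM stands for 57.1 reads in the median library. Atrazine lineage animals M48, M28 and M42 departed most often from the other animals along this chromosome. Across the 116 bins of 1 Mb, 182 of 7656 values of single animals were more than 25% below and 88 more than 25% above the median animal of the bin, and M48 alone gave 91 of these. M28 was that far below in 41 bins and above in 22, and M42, also of the atrazine lineage, in 35 and 20. The median coefficient of variation of a bin between animals was 8.85% with these animals and 6.11% without M28 and M48. M28 and M48 stood apart in an earlier analysis of these data. Most results that rest on them are given with and without them, and the counts of calls also without M42. The blocks of bins and the permutation tests of relations between levels were not repeated without M48.

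Read levels along the chromosome were even over most of its length. The median window of a bin held between 0.3 and 0.4 RPM in 112 of the 116 bins, and the median of the bins was 0.386 RPM. The table holds no reads of input DNA, so at this even level retained histones were not told apart from background reads. The lowest bins were at the start of the chromosome, with 0.168 RPM from 0 to 1 Mb and 0.278 RPM from 1 to 2 Mb, and at 65 to 66 Mb with 0.215 RPM. From 0 to 1 Mb 50.1% of the windows had enough reads to be tested, against 91.0% over the whole chromosome. The bin from 95 to 96 Mb had the highest median, 0.445 RPM. Mean levels differed more between bins than medians did. From 46 to 47 Mb the mean was 1.14 RPM per window while the median was 0.380 RPM. The next highest means were 0.638 RPM from 94 to 95 Mb and 0.510 RPM from 22 to 23 Mb.

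**Figure D1:**
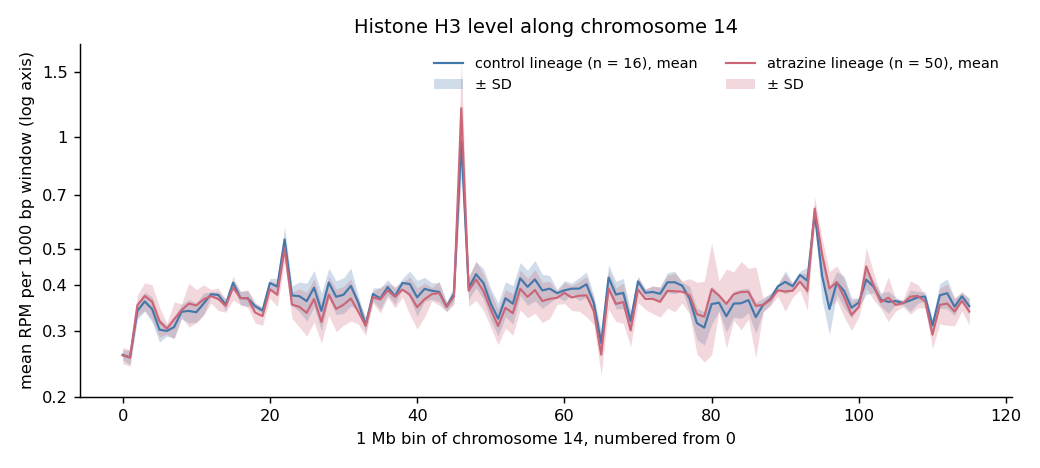
Mean RPM per 1000 bp window on a log axis in each 1 Mb bin of chromosome 14, with bins numbered from 0 at the start of the chromosome; lines are the means of the 16 control and 50 atrazine lineage animals and bands are ± SD. The profile is near 0.4 RPM with 1 tall peak in bin 46 and a smaller one in bin 94, and the wide atrazine lineage band around bin 80 comes with the library of M48, which was 3.30 times the median animal there.

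Windows over 5 times the median level of chromosomes 1 to 20, which is over 1.91 RPM, were few and crowded together. Of 266 such windows on the chromosome, 121 lay from 46 to 47 Mb and 71 from 94 to 95 Mb, and only 17 of the 116 bins held any. The highest single window, from 47988001 to 47989000, held 30.2 RPM, 78.6 times the median window of the chromosome. Its values ran from 8.62 to 50.2 RPM with a median of 29.3 RPM, and both lineages had nearly the same mean, 30.7 ± 9.50 RPM (SD, n = 16) in the control and 30.1 ± 8.04 RPM (SD, n = 50) in the atrazine lineage. The 4 windows next in height all lay from 46 to 47 Mb, starting at 46655001, 46531001, 46595001 and 46596001, with means between 11.9 and 13.2 RPM. In the first of these M48 reached 73.7 RPM, where the median animal had 11.6 RPM.

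Compared with chromosomes 1 to 20 as a whole, chromosome 14 was in the middle range of read level. Its mean of 0.374 RPM per window ranked 6 from the top of 20, where the chromosomes ranged from 0.346 to 0.392 RPM, and its median window of 0.385 RPM ranked 9. It took 4.46 ± 0.0803% (SD, n = 66) of the reads of chromosomes 1 to 20, close to its 4.41% of the windows. It ranked 8 of 20 in the number of windows over 5 times the median level per 10000 windows, where the median of the chromosomes was 15.4 and the highest value 89.4, on chromosome 19. Where it stood out was the lineage comparison, by which it was chosen. It held 24 of the 269 DHRs of chromosomes 1 to 20, or 8.92%, and 2.28 DHRs per 10000 windows tested against a median of 1.09, second to 3.44 on chromosome 12.

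Windows near known genes were mostly at the level of the rest of the chromosome. The study's annotation names 45 gene symbols at windows of this chromosome, of which 41 are also on chromosome 14 in RefSeq's annotation of a later build, GRCr8, in the same order. Those windows were picked by the study in part from these animals, so the genes serve as landmarks only. Their mean levels ranged from 0.184 RPM at Ptpn13, a protein tyrosine phosphatase gene, to 1.10 RPM at Dthd1, a gene of a death domain protein, with a median of 0.384 RPM. The window of Pf4, Ppbp and Cxcl6, chemokine genes of platelets and neutrophil recruitment, held 0.384 RPM. The window of Ugt2a3 and Ugt2b35, which encode enzymes that conjugate steroids and drugs to glucuronic acid, held 0.362 RPM. The window of Clock, a transcription factor of the circadian clock, held 0.412 RPM, and that of Slit2, an axon guidance ligand, 0.388 RPM. Only the Dthd1 window stood above nearly all others, higher than 99.1% of the tested windows of the chromosome.

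Between the lineages, 26 of the 105072 windows tested on the chromosome had p below 0.0001, of which 21 were higher in the atrazine lineage. Over all chromosomes such windows were 0.0133% of those tested, 0.0091% higher and 0.00419% lower. No window of the chromosome passed an adjusted p of 0.05, and 3 did in the whole series. At p below 0.05 there were 6284 windows, 5.98% of those tested, beside 6.24% in the whole series, and here 2710 were higher and 3574 lower, beside 3.57% and 2.66% of all windows. The median log2 fold change of the chromosome was -0.02. At the weaker limit more windows were lower than higher in the atrazine lineage, and at the stricter limit more were higher. The 24 DHRs divide into 19 that were higher and 5 that were lower. For the alternatives that follow no count over all chromosomes is given, and DESeq2's Wald test was run on chromosome 14 only. Without M28 and M48 there were 43, 38 higher and 5 lower, with DESeq2's Wald test 42, 30 higher and 12 lower, without M28, M42 and M48 43, 39 higher and 4 lower, and without the animals tagged DMSO 38, 29 higher and 9 lower. Among animals without disease there were again 24, but only 6 of the 24 DHRs of all animals were overlapped by one of the same direction, and 10 in place of 16 lay between 94873001 and 102172000. The weakest window inside the limit, from 95751001 to 95752000, had p = 9.93e-05 in edgeR's quasi-likelihood test and a log2 fold change of 0.58, and the strongest outside it, from 5858001 to 5859000, had p = 1.06e-04 and 0.70.

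The DHRs were not spread evenly. Of the 19 higher DHRs, 10 lay in 1 stretch from 94873001 to 97296000, 6 in another from 101126001 to 102172000 and 2 from 46521001 to 46663000, which left 1 elsewhere, from 107446001 to 107448000. The 2 stretches on the distal part of the chromosome are runs of at least 3 DHRs of the same direction with under 1 Mb between neighbours. In the 9 bins of 1 Mb from 94 Mb on, 1008 windows were higher and 161 lower at p below 0.05. The bins there held 7.26% of the tested windows of the chromosome and 37.2% of its windows that were higher at that limit.

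In bins of 1 Mb the lineage difference ran in long blocks of the same sign. The atrazine lineage was higher in 46 bins and lower in 70, and the largest blocks were 13 bins higher from 0 to 13 Mb, 15 bins lower from 18 to 33 Mb, 13 lower from 47 to 60 Mb, 16 lower from 61 to 77 Mb and 12 higher from 77 to 89 Mb. These signs come from the fit with TMM factors, and in some bins the mean RPM went the other way. From 12 to 13 Mb it was 0.378 RPM in the control and 0.374 RPM in the atrazine lineage. M48 was the lowest animal in every bin from 18 to 33 Mb, down to 0.386 times the median animal. From 9 to 10 Mb M48 was the highest, at 1.80 times. The blocks were not drawn again without M28 and M48. The largest log2 fold changes were 0.36 (SE 0.14) from 46 to 47 Mb, 0.21 (SE 0.05) from 95 to 96 Mb, 0.20 (SE 0.05) from 96 to 97 Mb, 0.19 (SE 0.13) from 80 to 81 Mb and 0.16 (SE 0.10) from 82 to 83 Mb. The bin from 46 to 47 Mb without M28 and M48 had 0.21 (SE 0.06), with an adjusted p of 0.00568 in place of 0.0587 in edgeR's quasi-likelihood test, and the bin from 82 to 83 Mb had 0.05 (SE 0.04). On the lower side the values were smaller, -0.10 (SE 0.05) from 31 to 32 Mb, and between that and -0.09 from 25 to 26, 28 to 29, 29 to 30 and 65 to 66 Mb. These bins had -0.09 to -0.08 without M28 and M48. In all animals an adjusted p below 0.05 was reached by 3 of the 116 bins on the higher side and by 14 on the lower. The higher ones were those from 95 to 96, 96 to 97 and 101 to 102 Mb. In the series 185 of 2793 bins, or 6.62%, were higher and 247, or 8.84%, lower at that limit. The split depends on the scaling. With table totals in place of TMM factors 2 higher bins and no lower bin passed, and the median log2 fold change of the bins of the chromosome moved from -0.03 to -0.04 and that of all bins from 0.01 to -0.01. Without the 13 animals tagged DMSO 50 lower and 5 higher bins passed. Leaving out M28 and M48 gave 22 lower and 6 higher bins, and leaving out M42 as well gave 27 lower and 5 higher. For these alternatives, and for the animals without disease below, no share over all bins is given. Whether the whole series changed alike was not determined. In all animals 42 of the 116 bins had an unadjusted p below 0.05 in edgeR's test. In the series these were 1148 of 2793 bins, or 41.1%. No bin of the chromosome passed an adjusted p of 0.05 in edgeR's test among the animals without disease. There 25 had an unadjusted p below 0.05. There the bins from 95 to 96 and from 96 to 97 Mb had log2 fold changes of 0.23 (SE 0.08) and 0.24 (SE 0.08), at least as large as in all animals, with an adjusted p of 0.194 for both. The lower bins that were called differed by little, from -0.03 to -0.07. From 31 to 32 Mb, where the difference was not called, control animals held 0.266 to 0.440 RPM with a median of 0.416 RPM and atrazine lineage animals 0.163 to 0.434 RPM with a median of 0.379 RPM. From 18 to 19 Mb, which was called, control animals held 0.3398 to 0.363 RPM with a median of 0.352 RPM and atrazine lineage animals 0.201 to 0.361 RPM with a median of 0.3399 RPM, close to the lowest control animal.

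**Figure D2:**
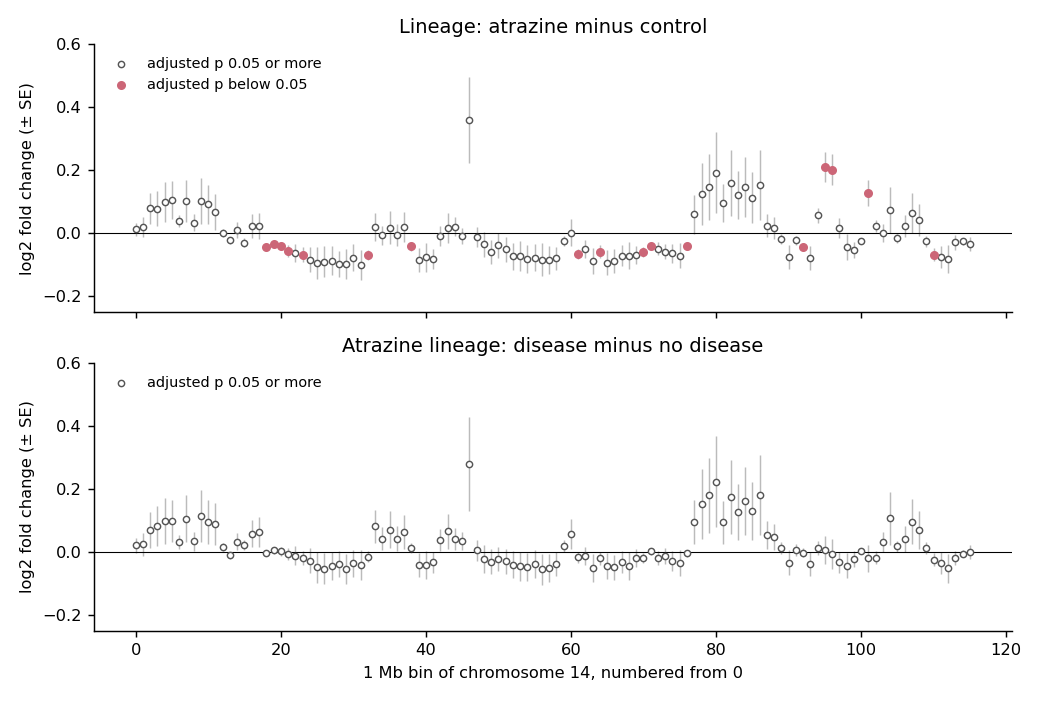
Log2 fold changes with their standard errors in each 1 Mb bin of chromosome 14 from edgeR's quasi-likelihood test, upper panel for atrazine minus control lineage (n = 50 and 16) and lower panel for disease minus no disease within the atrazine lineage (n = 31 and 19); filled points have an adjusted p below 0.05 over all bins of the series. Bins 95, 96 and 101 stand above 0 with short error bars in the upper panel and lie near 0 in the lower one, while bin 46 and the bins around bin 80 are high with long error bars in both.

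The bins from 80 to 81 and from 95 to 96 Mb differed in how many animals carried them. From 80 to 81 Mb the median animal of the atrazine lineage held 0.354 RPM and that of the control lineage 0.341 RPM, and the library of M48 reached 1.16 RPM. Without M28 and M48 the log2 fold change of that bin was 0.05. From 95 to 96 Mb control animals held 0.326 to 0.532 RPM with a median of 0.408 RPM and atrazine lineage animals 0.306 to 0.557 RPM with a median of 0.495 RPM. Without M28 and M48 that bin still had a log2 fold change of 0.20. In this bin the medians differed while the lowest and highest animals of the lineages were close.

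The first distal stretch held 10 DHRs over 2423 windows, and its level was raised well beyond the DHRs themselves. Its median window held 0.427 RPM, near the even level of most bins, where background reads were not told apart. Of the 1982 windows tested in it, 661 were higher in the atrazine lineage at p below 0.05 and none lower, 33.4% beside 3.57% of all windows. The log2 fold change was above 0 in 97.1% of them, with a median of 0.21, and it was 0.21 also in the 1865 tested windows outside the DHRs. In the 117 windows of the DHRs, control lineage animals held 0.354 to 0.619 RPM per window with a median of 0.442 RPM, and atrazine lineage animals 0.363 to 0.692 RPM with a median of 0.570 RPM. The means were 0.457 ± 0.0776 RPM (SD, n = 16) and 0.557 ± 0.0656 RPM (SD, n = 50), a log2 ratio of 0.29. Of the 50 atrazine lineage animals 48 were above the control median, but only 8 were above the highest control animal, M17. The DHR of smallest p in the stretch, from 95299001 to 95326000, held 0.398 ± 0.0817 RPM in the control and 0.493 ± 0.0759 RPM in the atrazine lineage, and its best window had a log2 fold change of 0.70 (p = 5.51e-06, adjusted p = 0.413, edgeR).

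The second distal stretch held 6 DHRs over 1046 windows. Of its 759 tested windows 206 were higher and 1 lower at p below 0.05, and 86.8% had a log2 fold change above 0, with a median of 0.17. The median window of its DHRs held 0.255 RPM where the median window of the stretch held 0.396 RPM, but the DHR from 102169001 to 102172000 was well above that, with 1.02 ± 0.215 RPM (SD, n = 16) in the control and 1.26 ± 0.226 RPM (SD, n = 50) in the atrazine lineage. Control lineage animals held 0.207 to 0.451 RPM per window in the DHRs with a median of 0.327 RPM, and atrazine lineage animals 0.249 to 0.565 RPM with a median of 0.439 RPM. Here 20 atrazine lineage animals were above every control animal, and the log2 ratio of the means was 0.37. The smallest p among the higher DHRs of the chromosome belonged to the window from 101347001 to 101348000. There the control lineage held 0.175 to 0.566 RPM with a median of 0.365 RPM and the atrazine lineage 0.198 to 0.864 RPM with a median of 0.569 RPM, a log2 fold change of 0.58 (p = 5.17e-06, adjusted p = 0.413, edgeR). Among animals without disease it was 0.57 (p = 0.000522, edgeR), outside the limit of a DHR.

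In both stretches the SD of the controls was at least that of the atrazine lineage. The DHRs of the stretches were picked for lower levels in the controls, so that controls are under the median of the animals is in part built in. The same controls were low throughout, and M2, M6, M7, M11, M12 and M13 were under the median of the animals in all 16 DHRs of the stretches. Control M17 was under it in only 2 of the 16. In the atrazine lineage the mean of the animals whose treatment tag reads DMSO lay between those of the other 2 sets, while single animals spread over most of the range of the controls and past its top. In the first stretch they held 0.510 ± 0.0751 RPM (SD, n = 13), where those tagged Atrazine held 0.574 ± 0.0534 RPM (SD, n = 37), and the log2 ratio to the control lineage was 0.16 for the former and 0.33 for the latter. In the second stretch these ratios were 0.19 and 0.43. M62, tagged DMSO, was the lowest atrazine lineage animal in both stretches, with 0.363 and 0.249 RPM. The part of the tag in the lineage difference was not tested.

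**Figure D3:**
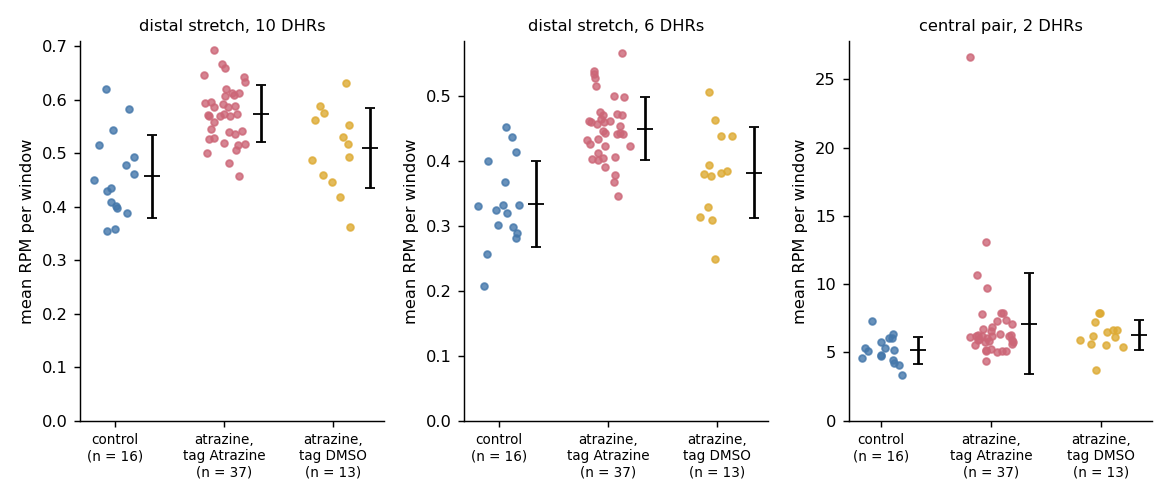
Mean RPM per window of each animal in the DHRs of the 2 distal stretches and of the central pair, by lineage and treatment tag; points are animals, bars the mean ± SD, and axes start at 0. In both stretches the mean of the animals tagged DMSO lies between those of the control and the other atrazine lineage animals, with points on both sides, and in the central pair 1 animal, M48, stands at 26.6 RPM.

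At the DHRs of the stretches the study's annotation lists 1 gene model, with a clone name, AABR07016310.2, at the DHR from 96536001 to 96548000 of the first stretch. In the study's annotation the nearest landmarks with a gene symbol are Vwc2 before them and Peli1 after them, and in the order of GRCr8 the genes between these include Ikzf1, a regulator of lymphocyte development, Egfr, the receptor of epidermal growth factor, and Meis1, a homeobox transcription factor. Whether any of these genes is inside a stretch was not determined. Of the genes listed with a symbol other than a clone name, only Adgrl3 and Psme4 are in DHRs of the lineage comparison, and both DHRs were lower.

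The central pair from 46521001 to 46663000 was of another kind. Its windows held 5.54 RPM on average, 14.8 times the mean of the chromosome, and 105 of its 142 windows were over 5 times the median level. The DHRs were the longest of the chromosome with 35000 and 52000 bp, where the median DHR had 3500 bp. In their 87 windows control lineage animals held 3.33 to 7.26 RPM with a median of 5.15 RPM, and atrazine lineage animals 3.70 to 26.6 RPM with a median of 6.18 RPM. Of the atrazine lineage 44 animals were above the control median and 11 above every control animal. The means were 5.16 ± 0.980 RPM (SD, n = 16) and 6.88 ± 3.23 RPM (SD, n = 50), a log2 ratio of 0.41. M48 held 4.39 times the median of all animals and M28 2.16 times. Without both the log2 ratio fell to 0.30. The study's annotation has only gene models with clone names here.

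The 5 lower DHRs were single sites, far apart and short. The smallest p among them was at 23733001 to 23734000, a poorly covered window with a median of 10 reads. Control lineage animals held 0.122 to 0.512 RPM there with a median of 0.295 RPM, and atrazine lineage animals 0 to 0.315 RPM with a median of 0.151 RPM, a log2 fold change of -0.79 (p = 7.64e-06, adjusted p = 0.431, edgeR). Among animals without disease it was -0.86 (p = 0.00026, edgeR), outside the limit of a DHR. Of the atrazine lineage 19 animals were below the lowest control animal, but 10 reads carry a counting error of 31.6%. From 28777001 to 28780000 the control lineage held 0.450 ± 0.0904 RPM (SD, n = 16) and the atrazine lineage 0.367 ± 0.0750 RPM (SD, n = 50). The study's annotation places this DHR in Adgrl3, which encodes latrophilin 3, an adhesion receptor of synapses. At 115244001 to 115245000 the values were 0.502 ± 0.132 RPM (SD, n = 16) and 0.343 ± 0.104 RPM (SD, n = 50). Here the median animal had 20 reads, a counting error of 22.4%, and the adjusted p was 0.609 (edgeR). In the study's annotation this window belongs to Psme4, whose product is a proteasome activator that takes part in the removal of acetylated histones from spermatids. The other 2 lower DHRs, from 54393001 to 54394000 and from 62744001 to 62746000, are at no named gene in that annotation.

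Each of the 66 animals was left out in turn and the log2 ratio of the lineage means was taken again. No DHR lost its direction or fell under 0.5 times its log2 size. The smallest ratio that was left was 72.9% of the full one, in the DHR from 46611001 to 46663000 without M48, and outside the central pair it was 83.7% or more. In the first distal stretch the log2 ratio ranged from 0.26 without control M6 to 0.32 without control M17, and in the second from 0.34 to 0.41 with the same animals. In the central pair it ranged from 0.33 without M48 to 0.45 without M17. All 24 DHRs kept their direction without M28 and M48 together and also when the 13 animals tagged DMSO were set alone against the controls, although in 19 of the 24 the difference was smaller in these 13 than in the other atrazine lineage animals. The DHRs were picked by their difference in these same animals, so a kept direction is largely built in and is not separate evidence.

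Single animals were also compared with the levels that whole copies of DNA would give. A deletion or gain of 1 of 2 copies would put an animal near 0.5 or 1.5 times the median, and a gain of 2 copies near 2 times. Of the 1584 values of animals in DHRs, 1105, or 69.8%, were within 25% of the median of the animals, 243 were 25 to 75% below and 189 were 25 to 75% above it, 39 were higher and 8 lower. The outer values came mostly with few reads. In the 11 DHRs with a counting error of 10% or more at the median animal, 42 values were more than 75% from the median, and in the 13 DHRs with a smaller counting error 5 were, all at the central pair. In the first stretch as a whole, where the median animal had 3534 reads and a counting error of 1.68%, animals ran from 0.652 to 1.28 times the median, and 59 of 66 were within 25% of it. The widest gap between neighbouring animals, leaving out the 3 lowest and 3 highest, was 0.0314 times the median. In the second stretch the range was 0.491 to 1.34 times and the widest such gap 0.0540. At the central pair the range was 0.550 to 4.39 times, with M28 second at 2.16 times, and the widest such gap was 0.295. The animals left out of these gaps include M6 of the control lineage, which was lowest in the second stretch at 0.491 times the median and was followed by M62 at 0.591 times. In the first stretch M6 was at 0.652 times, followed by M2 at 0.661. The table holds no reads of input DNA from which copies could be counted.

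**Figure D4:**
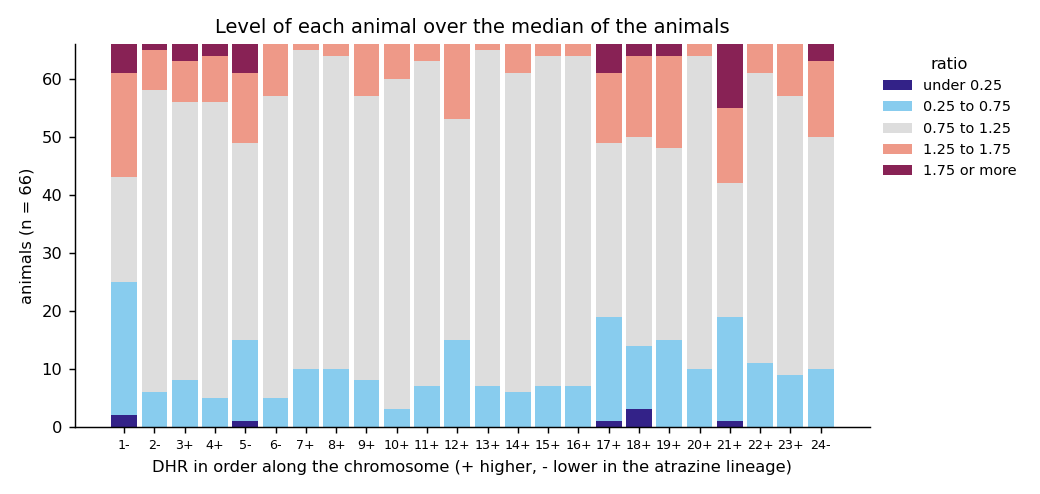
Number of the 66 animals in each class of level, as a ratio to the median of all animals, for the 24 DHRs in order along chromosome 14; + marks DHRs higher and - those lower in the atrazine lineage. Most animals are within 25% of the median in all but a few short DHRs, and the outermost classes are filled mainly in short DHRs with few reads and at the central pair (DHRs 3 and 4).

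The 2 distal stretches rose and fell together from animal to animal. Within the control lineage the log2 levels of the first and second stretch had a Pearson's r of 0.92 (n = 16, permutation p = 1e-05, the smallest that 100000 resamples can give) and a Spearman's rho of 0.91 (permutation p = 1e-05). Within the atrazine lineage r was 0.84 (n = 50, permutation p = 1e-05) and rho 0.77 (permutation p = 1e-05). With the 2 animals farthest from the median of the first stretch left out, r was 0.90 in the control and 0.76 in the atrazine lineage. These were 2 of 12 relations computed, and the adjusted p was 6e-05 for both. The permutations treat the animals of a lineage as exchangeable, and no r within a treatment tag is given. In both stretches the animals tagged DMSO had the lower mean within the atrazine lineage. Kinship was not taken into account, since the labels give no litter. The central pair did not pass an adjusted p of 0.05 with either stretch. Its r with the first stretch was 0.51 in the control lineage (n = 16, permutation p = 0.0422, adjusted p = 0.128), with a rho of 0.38 (permutation p = 0.152), and 0.22 without M8 and M17. In the atrazine lineage it was -0.08 (n = 50, permutation p = 0.55), with a rho of -0.03 (permutation p = 0.849), and r was -0.14 without M62 and M66. With the second stretch its r was 0.34 in the control lineage (n = 16, permutation p = 0.197), with a rho of 0.30 (permutation p = 0.259) and an r of 0.30 without M6 and M17. In the atrazine lineage these were 0.14 (n = 50, permutation p = 0.302), 0.12 (permutation p = 0.405) and 0.16 without M62 and M63. M48, the highest animal of the pair, is in each of the values of the atrazine lineage.

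**Figure D5:**
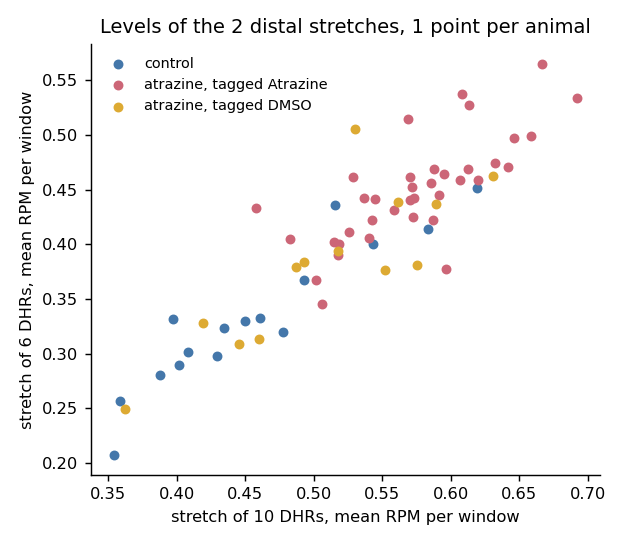
Mean RPM per window in the DHRs of the second distal stretch (vertical axis) against the first (horizontal axis), 1 point for each of the 66 animals, coloured by lineage and treatment tag. Animals of both lineages lie along the same band, from about 0.35 and 0.21 RPM for control M6 upward, and control and atrazine lineage animals mix in the middle of it.

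A general concentration of reads was compared with these levels. In each library, the share of reads of the other chromosomes of 1 to 20 that fell in the 5% of their windows with the highest mean was 12.4 ± 0.376% (SD, n = 16) in the control and 12.5 ± 0.453% (SD, n = 50) in the atrazine lineage. Its r with the first stretch was 0.39 in the control lineage (n = 16, permutation p = 0.143), with a rho of 0.34 (permutation p = 0.2), and r was 0.14 without M2 and M3. In the atrazine lineage r was 0.19 (n = 50, permutation p = 0.186), with a rho of 0.20 (permutation p = 0.163), and 0.27 without M28 and M22. With the second stretch r was 0.33 in the control lineage (n = 16, permutation p = 0.209), with a rho of 0.39 (permutation p = 0.141), and 0.09 without M2 and M3. In the atrazine lineage it was -0.07 (n = 50, permutation p = 0.614), with a rho of -0.07 (permutation p = 0.616), and 0.06 without M28 and M22. With the central pair r was 0.51 in the control lineage (n = 16, permutation p = 0.0426, adjusted p = 0.128), with a rho of 0.33 (permutation p = 0.208), and -0.05 without M2 and M3. In the atrazine lineage it was -0.24 (n = 50, permutation p = 0.0923), with a rho of -0.02 (permutation p = 0.893), and -0.02 without M28 and M22. None of these passed an adjusted p of 0.05. M48 was not left out of any of the values of the atrazine lineage.

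The order of the animals in the stretches was seen again, in the same or the opposite direction, on other chromosomes. As a description with no test, the level of each 1 Mb bin of all chromosomes was correlated with the first stretch within the control lineage (n = 16) and within the atrazine lineage without M28 and M48 (n = 48). In 51 of 2789 bins outside the stretch r was at least 0.7 in both lineages, and these bins lay on 15 chromosomes with only 1 of them on chromosome 14. In 14 bins r was -0.7 or less in both. With the second stretch 36 of 2791 bins, on 11 chromosomes, were at 0.7 or more in both lineages and 38 at -0.7 or less. The closest to the first stretch were chromosome 12 from 35 to 36 Mb with r of 0.97 and 0.95, chromosome 16 from 30 to 31 Mb with 0.95 and 0.92, chromosome 12 from 34 to 35 Mb with 0.97 and 0.91 and chromosome 1 from 70 to 71 Mb with 0.97 and 0.91. Of the 51 bins that followed the first stretch, 47 were higher in the atrazine lineage at an adjusted p below 0.05 in edgeR's quasi-likelihood test, beside 6.62% of all bins, and none was lower. All bins share the libraries and their depth, and bins that follow the same animals can show like lineage differences, so the counts are not separate evidence. The central pair had another partner. Its level went with chromosome 1 from 11 to 12 Mb at r of 0.97 and 0.98 (rho 0.99 and 0.97) and less closely with chromosome 6 from 30 to 31 Mb at 0.84 and 0.79, and only these 2 bins of 2792 reached 0.7 in both lineages.

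Disease within the atrazine lineage was not used to choose the chromosome. It gave no call there in all 50 animals. Calls were rare in the whole series, so their lack is not a trait of this chromosome. All diseases are pooled here, while the study compared animals with each single disease, or with several, against those without. With 31 animals that had any disease against 19 without, none of the 104890 windows tested on the chromosome had p below 0.0001 in edgeR's quasi-likelihood test, beside 0.00101% of all windows (0.000523% higher and 0.000483% lower in diseased animals), and 25 DHRs were found in the rest of the genome. At an unadjusted p below 0.05 there were 3230 windows, 3.08% beside 3.11% of all windows, 1584 higher and 1646 lower in diseased animals, beside 1.72% and 1.39% of all windows. DESeq2's Wald test put 4110 windows under p = 0.05 and gave 2 DHRs. It was run on the windows of chromosome 14 only, so it has no share over all windows to stand beside these counts. Without M28 and M48, which were both diseased animals, edgeR's test gave 3 DHRs, all higher in diseased animals, at 16051001 to 16056000, 33461001 to 33467000 and 76122001 to 76124000. In all 50 animals the best windows of these had log2 fold changes of 0.61 (p = 0.00108), 0.54 (p = 0.000693) and 0.49 (p = 0.000259) in edgeR's quasi-likelihood test. Without M42 as well there was 1 more, at 48678001 to 48679000, also higher. These DHRs are named after their values were seen, and none is in a DHR of the lineage comparison. For the sets without these animals no count over all chromosomes is given. Of the best windows of the lineage DHRs, 23 could be tested for disease and none had p below 0.05 in edgeR's test, the smallest p being 0.0886. No 1 Mb bin of the chromosome had p below 0.05, beside 0.286% of all bins. The smallest p belonged to the bin from 46 to 47 Mb, where the log2 fold change was 0.28 (SE 0.15, p = 0.0685, adjusted p = 0.588, edgeR). The bins from 33 to 34 Mb and from 80 to 81 Mb followed with 0.08 (SE 0.05) and 0.22 (SE 0.14). Without M28 and M48 the difference of the bin from 46 to 47 Mb was 0.05 (adjusted p = 1.00, edgeR).

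Chromosome 14 took 4.44 ± 0.0896% of the reads of chromosomes 1 to 20 in diseased animals (n = 31) and 4.47 ± 0.0648% without disease (n = 19), a difference of -0.0244 percentage points (two-sided permutation test, 100000 resamples, p = 0.322). The mean log2 level of the first distal stretch differed by -0.01 (permutation test, p = 0.885, adjusted p = 0.885) and that of the second by -0.04 (permutation test, p = 0.513, adjusted p = 0.885), both well within the SDs of 0.17 to 0.25 among animals. The central pair differed by 0.19 (permutation test, p = 0.128), and by 0.09 without M28 and M48 (permutation test, p = 0.278). Among animals without disease, the log2 ratio of the atrazine to the control lineage was 0.34 in the first stretch and 0.49 in the second. The stretches were picked by the lineage difference in a set that includes these animals, so these ratios are largely built in.

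The windows of listed genes were also set against disease, as a description, since the study picked some of them from these animals. The 41 genes lie at 37 distinct windows, and 5 of these windows, each of 1 gene, had an unadjusted p below 0.05 in edgeR's quasi-likelihood test, beside 3.11% of all windows. Lower levels in diseased animals were seen at Tlr6, a toll-like receptor of innate immunity, with a log2 fold change of -0.35 (p = 0.00327), and at Klf3, a zinc finger transcription factor, with -0.31 (p = 0.0224). Higher levels were seen at Stk32b, a serine/threonine kinase gene, with 0.38 (p = 0.00287), at Emid1, an extracellular matrix protein gene, with 0.58 (p = 0.0155), and at Erlec1, a lectin gene of the endoplasmic reticulum, with 0.36 (p = 0.0162). The window of Emid1 lies in the block from 77 to 89 Mb, and its highest animal had 3.23 RPM where the median animal had 0.356 RPM. Its log2 fold change was 0.22 without M28 and M48 (p = 0.0903, edgeR), while the other 4 windows stayed under p = 0.05. In that set the window of Smim14 also came under this limit, with 0.27 (p = 0.031, edgeR), so the count stayed at 5.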

How the data were processed

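Sperm chromatin of 66 F3 generation rats was immunoprecipitated and sequenced. The methods name an antibody to histone H3 and, as an alternative, one to its trimethylated lysine form, and they describe equal numbers of sperm from several individuals while the table has a column for each animal. Reads were trimmed with Trimmomatic and mapped with Bowtie2 to Rnor 6.0, and the authors counted reads in windows of 1000 bp with MEDIPS. The deposited values are raw read counts, whole numbers per window and animal. Extension and removal of duplicate reads are not given in the sources used here. The deposited columns of edgeR comparisons hold the fold changes and p-values of the authors and were not used, and 298 further columns of single samples were not used. Tables of 5 disease comparisons were not used.

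RPM is the count divided by the total of the animal's counts in the table. Windows whose counts averaged 10 or more over the animals were tested on all chromosomes together with edgeR 4.0.16 (R 4.3.3, limma 3.58.1), with TMM factors, glmQLFit and glmQLFTest, and the dispersion trend was taken from 200000 windows drawn at random. P-values were adjusted by Benjamini and Hochberg over all windows or bins tested. Counts were summed in bins of 1 Mb, and the same test was run on the bins of all chromosomes. Permutation tests drew 100000 resamples (Python 3.11.15, NumPy 2.4.6, SciPy 1.17.1). DESeq2 1.42.0 served as an alternative. The quasi-likelihood test of windows, the rule for stretches and the permutation test were tried on made-up data with known answers. The other steps were not tried in this way. Counting errors are the square root of the reads over the reads and cover counting only, since copies from amplification are not independent molecules.

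The chromosome, its stretches and the lists were chosen with earlier results of these data known, so lineage differences carry no test of their own. Named regions were every stretch, the DHR of smallest p in each direction and stretch, the bins of extreme level or difference, and the 5 highest windows. The genes named and the comparison of bins with the stretches were added after values were seen. No sequence is shown, since no genome of the build Rnor 6.0 was used here.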

Additional observations from a re-analysis of the deposited data

Results flagged for a closer look

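Control lineage animal M17, which has disease, had the lowest share of reads on chromosome 14 of its group, 4.33% of the reads of chromosomes 1 to 20. It was far from the other 6 control animals with disease by Dixon's criterion at 95%. In all, 8 groups of 4 to 10 values were tested this way, and chance alone flags about 1 group in 20. The same animal had the highest control level in both distal stretches, and its level was more than 25% below the median animal in 17 and more than 25% above it in 7 of the 116 bins of the chromosome. The cause was not tested.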

How the results depend on the processing

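The number of lineage DHRs on chromosome 14 was 24 and stayed between 19 and 28 with DESeq2 size factors, with either filter on low counts and among animals without disease. It was 42 with DESeq2's Wald test, 43 without M28 and M48, 43 also without M42 and 38 without the 13 animals tagged DMSO, each with more higher than lower DHRs. Of the 24 DHRs, 24 were overlapped by a DHR of the same direction without M28 and M48, 21 without the animals tagged DMSO and only 6 among animals without disease, a set with 9 control and 19 atrazine lineage animals. In that set the best windows at 101347001 and 23733001 had log2 fold changes of 0.57 and -0.86, beside 0.58 and -0.79 in all animals, with larger standard errors. Disease DHRs numbered 0, and 1 with no filter on low counts, 2 with DESeq2's Wald test 3 without M28 and M48 and 4 without M28, M42 and M48. Leaving out M42 was chosen after seeing the data. No count of DHRs or bins over all chromosomes is given for the alternatives here. Lineage bins past an adjusted p of 0.05 numbered 17, and 2 with table totals in place of TMM factors, 55 without the animals tagged DMSO, 28 without M28 and M48, 32 without M28, M42 and M48 and 0 among animals without disease, where fewer animals were tested. The disease difference of the bin from 80 to 81 Mb reversed from 0.22 to -0.011 without M28 and M48 and to -0.030 without M42 as well. Apart from the construction of the smaller sets, the cause of these changes was not tested. The median log2 fold change of the lineage over all bins went from 0.010 to -0.0085 with table totals and to -0.0045 without M28 and M48, and that of disease over the bins of chromosome 14 from 0.0011 to -0.022 and -0.0038. The share and stretch tests of disease stayed past no threshold under their alternatives. No paired analysis was possible because the animals carry numbers of their own and share none between groups. Windows with a median of 10 reads have a counting error of 31.6% per animal, which limits what single animals show there.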
